A study of Mus musculus with 8 samples.

Results

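The NF-kappaB genes described here are 10 autosomal genes chosen by name: the subunit genes Nfkb1, Nfkb2, Rel, Rela and Relb, the inhibitor genes Nfkbia, Nfkbie, Nfkbiz and Bcl3, and Tnfaip3, which encodes the ubiquitin-editing enzyme A20. They are 10 of 21951 protein-coding genes whose starts were placed on the contact maps, and each was followed through the 50 kb bin that holds its start and through the 2 Mb on each side of that bin. The maps came from in situ Hi-C, which cuts crosslinked chromatin with MboI, joins ends that lie close together in the nucleus and counts the joined pairs, so a contact is a read pair that links 2 bins and says nothing of RNA or protein. Naive B cells of male C57BL/6 mice (Pep3b background, 6 to 12 weeks old) were labelled with CellTrace Violet, a dye diluted at each division, and stimulated with 25 µg/ml lipopolysaccharide (LPS). Undivided cells positive for the activation marker CD69 were sorted after 3 hours, after 10 hours and after 33 hours (imminent division). A further 33 hours group (pre S-phase) came from C57BL/6 FUCCI mice, whose fluorescent reporters mark cell cycle phase, and was sorted as mAG- mKO2hi, so the gate and the reporter strain cannot be told apart in any comparison with that group. Each group held 2 biological replicates, 8 libraries in all. Imminent division is a population of undivided cells at 33 hours and not a purified cell cycle phase.

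The libraries held 88703088 to 218945191 read pairs, and 70.9% to 75.1% of the pairs joined bins of the same chromosome. Replicate 2 of the imminent division group stood apart: its X chromosome took 3.74% of the read ends, against 2.39% to 2.84% in the other 7 libraries, and its Y chromosome 0.049%, against 0.0804% to 0.123%. These shares are at odds with the methods, which name male mice only, and whether the cells came from other animals was not tested. Results of that group are therefore also given without this library where that changes a call. Replicates of every group differed by more than sampling noise. The start bins of the B cell genes Cd79a, Cd79b, Ms4a1, Pax5 and Ebf1 lay in the active A compartment, but so did Cd3e, Tcf7, Csf1r and Lyz2. Alb, a liver gene, had lower compartment scores (positive in A), with group means of 0.43 (3 h), 0.34 (10 h), 0.10 (imminent division) and -0.018 (pre-S). Since the genes of T and myeloid cells lay in A as well, compartments do not check the cell type.

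NF-kappaB is a family of dimeric transcription factors. In resting cells, inhibitor proteins of the IkappaB family hold most dimers in the cytoplasm, and signals such as LPS acting through Toll-like receptors lead to degradation of those inhibitors and entry of the dimers into the nucleus. The products of Rela, Rel and Relb carry transactivation domains, whereas the products of Nfkb1 and Nfkb2 are precursors that are processed to DNA-binding partners. Several inhibitors are themselves induced by NF-kappaB and restrain it in turn, and in B cells this pathway supports survival, growth and entry into the first division.

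Promoter sequence is shown first because several of these genes are textbook targets of the factor that they encode or restrain. RefSeq promoter windows of GRCm38.p6, each running from 250 bases before to 50 bases after a gene's start, were held for 7 of the 10 genes, and 6 of the 7 contained at least 1 match to the NF-kappaB consensus, searched on both strands by that name. The same consensus was matched in 8.55% of all autosomal promoter windows (2685 of 31396). Counted the same way, 8 of the 10 windows held for the 7 genes had a match, as some genes have several starts. A match is a run of letters and not a measured binding site. The 3 windows below, cut at the start of transcription, belong to genes whose contacts fell at imminent division, and Nfkbia is added as the inhibitor gene best known for this motif. Capitals mark a consensus match.
Rela, chr19:5637291-5637540, plus strand: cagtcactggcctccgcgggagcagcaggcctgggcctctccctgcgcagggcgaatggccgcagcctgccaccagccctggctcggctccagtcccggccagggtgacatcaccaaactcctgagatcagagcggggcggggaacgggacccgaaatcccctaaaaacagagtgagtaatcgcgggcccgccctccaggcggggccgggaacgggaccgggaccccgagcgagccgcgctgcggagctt
Nfkbie, chr17:45555450-45555699, plus strand: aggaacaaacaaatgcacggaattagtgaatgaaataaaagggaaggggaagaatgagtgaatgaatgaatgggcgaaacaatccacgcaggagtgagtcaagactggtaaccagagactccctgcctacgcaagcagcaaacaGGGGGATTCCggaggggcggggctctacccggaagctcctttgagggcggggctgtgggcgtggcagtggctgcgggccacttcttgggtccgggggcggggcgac
Bcl3, chr7:19822756-19823005, minus strand: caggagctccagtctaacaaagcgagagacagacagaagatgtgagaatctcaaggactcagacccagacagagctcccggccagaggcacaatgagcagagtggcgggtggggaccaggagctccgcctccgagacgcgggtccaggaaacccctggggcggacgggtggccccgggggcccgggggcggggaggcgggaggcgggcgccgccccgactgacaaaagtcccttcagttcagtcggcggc
Nfkbia, chr12:55492648-55492897, minus strand: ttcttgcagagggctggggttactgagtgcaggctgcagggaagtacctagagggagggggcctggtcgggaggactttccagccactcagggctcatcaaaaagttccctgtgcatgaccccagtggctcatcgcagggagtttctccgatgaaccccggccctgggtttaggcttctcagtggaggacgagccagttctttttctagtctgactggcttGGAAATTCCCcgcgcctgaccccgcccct

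Rela had no match in its window. The match of Bcl3, GGGAAGTCCC, began within the first bases after the start and so lies outside the stretch printed. Among the remaining genes the matches were GGGAATTCCCC, GGGGCTTTCC, GGAATGTCCC and GGGACTTTCC in the windows of Nfkb2, GGGAAATCCCC in that of Rel, and GGGACACCCC and GGAAATCCCC in that of Tnfaip3. Nfkb1, Relb and Nfkbiz had no entry.

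The 10 genes lie on 8 chromosomes. Coordinates are those of mm10 (GRCm38). The start bin of Nfkb1 spans chr3:135649687-135700046, that of Rel chr11:23750729-23799896, that of Nfkbia chr12:55450024-55500211, that of Nfkbiz chr16:55800004-55849852 and that of Tnfaip3 chr10:18999821-19050108, and in each of these the named gene is the only protein-coding start. Bcl3 is likewise alone in its bin, and the remaining 4 bins are shared. Nfkb2 (chr19:46299791-46349928) shares its bin with the starts of Cuedc2, Fbxl15, Mfsd13a and Psd. Rela (chr19:5600240-5649844) shares with Kat5 and Rnaseh2c, and Nfkbie (chr17:45549960-45599916) with Hsp90ab1, Slc29a1 and Slc35b2. Relb (chr7:19600173-19649923) shares with Clasrp and lies 200 kb from Bcl3 (chr7:19799998-19849977), so the windows of Relb and Bcl3 overlap and their sums are not independent. Of the 80 bins in each window, 77 to 80 could be used for 8 genes, but only 52 for Relb and 48 for Bcl3. Values of a bin with several starts belong to the bin and cannot be assigned to 1 of its genes.

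Summed cis contacts, the read pairs between a start bin and all usable bins up to 2 Mb away, were first compared between 3 h and 10 h of activation. None of the 10 genes changed by edgeR's quasi-likelihood test at a false discovery rate of 5% (2 had an unadjusted p below 0.05, smallest adjusted p = 0.151), where 0.0677% of all start bins were called. DESeq2 also called 0 there, and at imminent division and pre-S it called 7 and 5 of the genes. Over all start bins DESeq2 called 6746 and 6046 of 13301 in these 2 comparisons. Between 10 h and imminent division 5 of the 10 changed, Relb, Bcl3, Nfkbie and Rela downward and Nfkbiz upward, while 44.0% of all start bins were called and 21.8% were called lower. Between 10 h and pre-S 4 changed, Relb, Bcl3 and Rela downward and Nfkbiz upward, against 37.1% called over all start bins and 18.0% called lower. Both comparisons use the same 10 h libraries, so they are not separate evidence. The share of the 10 genes called was thus near that of all start bins in either comparison. No gene of the 10 was called between imminent division and pre-S (smallest adjusted p = 0.0930), against 4.14% of all start bins.

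Of the subunits that carry a transactivation domain, Relb and Rela fell in summed contacts and Rel gave no call. Relb, whose product pairs mainly with the processed product of Nfkb2 in the non-canonical pathway, had 2587 and 2440 normalised contacts (3 h), 2545 and 2334 (10 h), 2014 and 2056 (imminent division) and 2004 and 2131 (pre-S). All 4 libraries of 33 h lay below all 4 earlier ones. On the log2 scale the change from 10 h was -0.26 ± 0.045 (SE) at imminent division (edgeR, adjusted p = 0.000189) and -0.24 ± 0.049 at pre-S (adjusted p = 0.00109). The first was no longer called with interchromosomal coverage of each bin in the offsets (-0.14, adjusted p = 0.0673) or over only the bin pairs that pass the study's filter on interactions (-0.02, adjusted p = 0.895), and the second without replicate 1 of pre-S (adjusted p = 0.0571). Rela, which encodes the p65 subunit of the canonical dimer, had 3089 and 3033 (3 h), 3137 and 3078 (10 h), 2963 and 2810 (imminent division) and 2761 and 2855 (pre-S). Its 33 h libraries again lay below all earlier ones. The changes were smaller, -0.11 ± 0.037 (adjusted p = 0.0254) and -0.15 ± 0.040 (adjusted p = 0.00804, both edgeR), and the first was no longer called without replicate 2 of imminent division (-0.06, adjusted p = 0.303), without either 10 h library, with bin coverage in the offsets (0.02, adjusted p = 0.843) or with the study's filter (0.07, adjusted p = 0.783). The second was lost without replicate 1 of 10 h or of pre-S and with the study's filter (adjusted p = 0.418).

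Rel, which encodes c-Rel, a subunit abundant in lymphocytes, had 2725 and 2908 normalised contacts (3 h), 2778 and 2704 (10 h), 2882 and 2754 (imminent division) and 2761 and 2717 (pre-S). Its groups overlapped, and the change from 10 h was 0.04 ± 0.039 at imminent division (edgeR, adjusted p = 0.426). That value depends on the scaling, since TMM factors turned it to -0.13 (adjusted p = 0.0141). The precursor genes gave no call, although Nfkb2 was called at imminent division with TMM factors (-0.17), with DESeq2 (adjusted p = 0.00484) and without replicate 1 of that group, and gave 0.08 with bin coverage in the offsets. Nfkb1, encoding p105, which is processed to p50, ranged from 1969 to 2109 over the 8 libraries, and Nfkb2, encoding p100, from 2089 to 2354, with the lowest value of Nfkb2 in replicate 2 of imminent division.

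Among the inhibitors, Bcl3 had the widest fall of the 10 genes in summed contacts. Its product is a nuclear IkappaB protein that binds p50 and p52 homodimers. It had 2204 and 2093 normalised contacts (3 h), 2206 and 2041 (10 h), 1695 and 1713 (imminent division) and 1822 and 1719 (pre-S), and the 33 h values lay below all earlier ones. The change was -0.31 ± 0.044 at imminent division (edgeR, adjusted p = 3.24e-05) and -0.26 ± 0.048 at pre-S (adjusted p = 0.000565). Neither was called with bin coverage in the offsets (-0.18, adjusted p = 0.0516, and -0.15, adjusted p = 0.128) or with the study's filter (-0.16, adjusted p = 0.287, and -0.22, adjusted p = 0.249). Nfkbie, which encodes the cytoplasmic inhibitor IkappaB epsilon, had 2141 and 2099 (3 h), 2153 and 2224 (10 h), 1915 and 1864 (imminent division) and 1975 and 2170 (pre-S). Both imminent division libraries were lower than the other 6. Its change was -0.21 ± 0.043 at imminent division (adjusted p = 0.000592, but -0.13 and adjusted p = 0.102 with bin coverage in the offsets) and -0.08 ± 0.046 at pre-S (adjusted p = 0.163), and the direct comparison of imminent division with pre-S gave -0.13 ± 0.045 (edgeR, adjusted p = 0.0930), which was not a call.

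Nfkbiz ran the opposite way. It encodes IkappaB zeta, a nuclear protein induced by LPS that is needed for a secondary wave of target genes. Its values were 2175 and 2158 (3 h), 2189 and 2178 (10 h), 2447 and 2374 (imminent division) and 2534 and 2440 (pre-S), with all 33 h libraries above all earlier ones. The rise was 0.14 ± 0.038 at imminent division (edgeR, adjusted p = 0.00516) and 0.19 ± 0.040 at pre-S (adjusted p = 0.00152). With TMM factors it was 0.05 (adjusted p = 0.319) and 0.10, and with DESeq2 0.05 (adjusted p = 0.362) and 0.10 (adjusted p = 0.0782), none of them a call. The first call was also lost without replicate 2 of 10 h (adjusted p = 0.0528) and the second without replicate 1 of pre-S (adjusted p = 0.0527). Offsets that carry bin coverage gave -0.03 (adjusted p = 0.696) at imminent division and 0.06 (adjusted p = 0.427) at pre-S. Nfkbia, encoding IkappaB alpha, the main cytoplasmic inhibitor, ranged from 1889 to 2172 with overlapping groups and gave no call. Tnfaip3 had 3122 and 3383 at 3 h and 2932 and 2941 at 10 h, then 2865 to 3033 at 33 h. Both of its 3 h libraries were the highest of the 8, yet the change of -0.15 ± 0.041 from 3 h to 10 h did not pass (edgeR, adjusted p = 0.151).

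**Figure D1:**
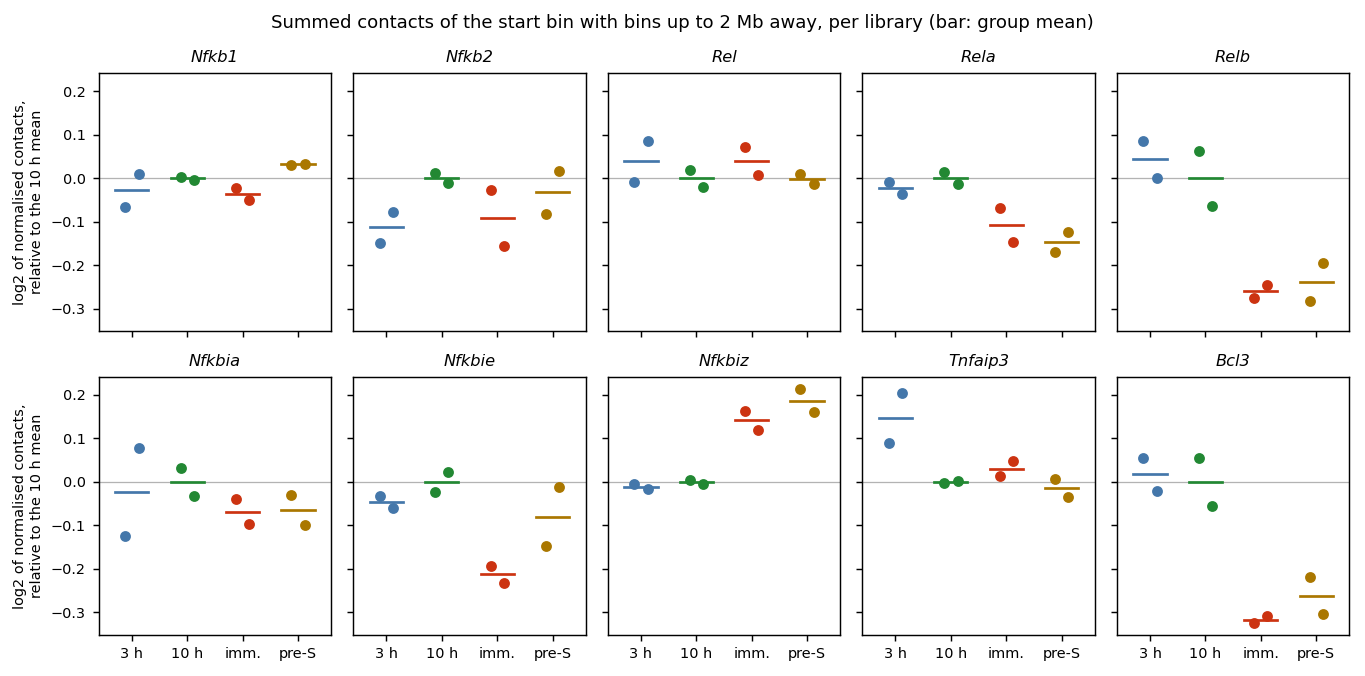
Log2 of the normalised summed contacts of each start bin with the 2 Mb on either side, relative to the 10 h mean. Points are the 8 libraries and bars the group means. Relb, Bcl3 and Rela lie lower in all 4 libraries of 33 h than in the 3 h and 10 h libraries, Nfkbiz lies higher, and Tnfaip3 is highest at 3 h.

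Where along the 4 Mb those contacts changed was read from single pairs of 50 kb bins. Of the pairs anchored at the 10 start bins, 429 were abundant enough to test. None differed between 3 h and 10 h by edgeR's quasi-likelihood test (44 had an unadjusted p below 0.05, and DESeq2 also gave 0), with 0.000617% of all tested pairs called. Between 10 h and imminent division 27 pairs differed, 25 of them weaker and 2 stronger. That is 6.29% called and 5.83% weaker, where all tested pairs gave 2.03% called and 1.39% weaker. A background closer in kind is pairs up to 2 Mb apart with both bins in compartment A, of which 3.53% weakened. Of the 27 partner bins, 26 lay in A and 23 held a protein-coding start. The same shares were not counted among all 429 tested pairs, so these counts do not set the called pairs apart. In all 27 pairs the 10 h and imminent division libraries did not overlap. The pairs were picked by the test of that same difference, so this adds no support. Without replicate 2 of imminent division 8 pairs were called, 7 of them among the 27, and without replicate 2 of 10 h there were 2. Up to 3 pairs per gene and comparison were followed through 12 or 13 alternatives. Of these pairs, only that of Rela with the bin of Majin at imminent division was called in all alternatives counted for it, which were 12. Pairs with 12 alternatives had no adjusted p from DESeq2, so that test neither kept nor lost their calls. Every other one was lost without at least 1 library.

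At pre-S 8 pairs differed from 10 h, all weaker, which is 1.86% of the 429, against 0.599% called and 0.249% weaker over all tested pairs and 0.578% weaker among pairs within A up to 2 Mb. 4 pairs were called in both 33 h comparisons, which share their 10 h control. A single pair differed between imminent division and pre-S, where 0.372% of all tested pairs were called. Counted by gene, the 27 pairs at imminent division comprised 6 of Rela, 6 of Nfkbie, 5 of Bcl3, 3 of Relb, 3 of Tnfaip3, 2 of Nfkb2 and 1 each of Rel, Nfkbia and Nfkbiz, with the pair that joins Relb to Bcl3 counted under both. Nfkb1 had none at imminent division (13 of its 48 pairs had an unadjusted p below 0.05) and 1 at pre-S.

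**Figure D2:**
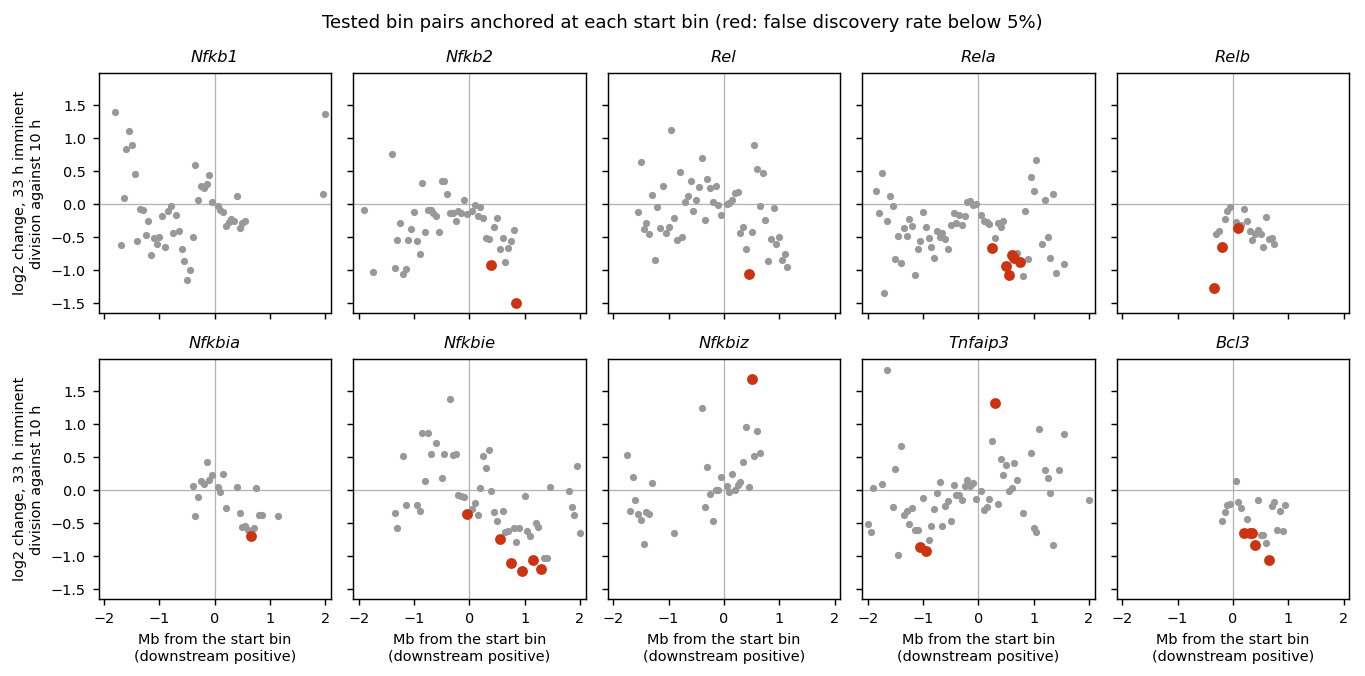
Log2 change of each tested bin pair between 10 h and imminent division (vertical axis) against the distance of the partner bin from the start bin in Mb, downstream of the gene to the right. Called pairs are red: those of Rela and Bcl3 all lie downstream and below 0, those of Nfkbiz and 1 of Tnfaip3 lie above 0.

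The called pairs of Rela lay in the gene-dense chromatin downstream of it, at 250, 500, 550, 600, 650 and 750 kb, and all 6 weakened. Those at 600, 650 and 750 kb were not called without replicate 2 of imminent division. The first was the bin at chr19:6150199-6199991, 550 kb away, which holds the start of Majin, a meiotic telomere gene, and part of Batf2. Its normalised counts with Rela were 49.3 and 62.5 (3 h), 75.0 and 67.3 (10 h), 38.2 and 29.5 (imminent division) and 29.1 and 30.1 (pre-S). All 4 libraries of 33 h were below the lowest earlier one. The change was -1.07 ± 0.196 at imminent division (edgeR, adjusted p = 0.000143), still called without replicate 2 of that group (adjusted p = 0.0329), and -1.26 ± 0.240 at pre-S (adjusted p = 0.000689). The bin 250 kb away at chr19:5850174-5899995, with the starts of Frmd8, Slc25a45 and Tigd3, had 121 and 115 (3 h), 134 and 137 (10 h), 85.4 and 85.7 (imminent division) and 86.5 and 87.4 (pre-S). Replicates were nearly equal and the 33 h values were lower in both groups, by -0.67 ± 0.138 (adjusted p = 0.00127) and -0.64 ± 0.159 (edgeR, adjusted p = 0.0221). Arl2, Batf2, Naaladl1, Sac3d1 and Snx15 start in the bin 500 kb away (chr19:6099917-6150202), which changed by -0.94 ± 0.195 at imminent division (adjusted p = 0.00126, and 0.0512 without replicate 2 of that group) and by -0.83 ± 0.228 at pre-S (adjusted p = 0.0493).

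Relb and Bcl3, neighbours on chromosome 7, weakened toward each other. The pair of their start bins had 104 and 99.6 normalised counts (3 h), 122 and 116 (10 h), 71.5 and 79.0 (imminent division) and 78.1 and 76.0 (pre-S). The 10 h libraries were the highest and the 33 h libraries the lowest. The change was -0.65 ± 0.146 at imminent division (edgeR, adjusted p = 0.00349) and -0.62 ± 0.169 at pre-S (adjusted p = 0.0466). The first held without replicate 2 of imminent division (adjusted p = 0.0178) but was lost without replicate 1 (0.0617), without either 10 h library (0.0733 at most) and under offsets that carry bin coverage (0.0588). The second was lost in 7 of 12 alternatives. The 2 groups of 33 h differed by -0.03 ± 0.170 (adjusted p = 0.978). All 22 tested pairs of Relb and 22 of the 23 tested pairs of Bcl3 had a lower estimate at imminent division than at 10 h. Their medians were -0.41 and -0.43. Of the 429 pairs, which include these, 300 were lower and the median was -0.24. Over all tested pairs, at any distance on the chromosome and in either compartment, the median was 0.016. Those pairs are not a background of the same kind, and the difference between the medians was not tested. Pairs of 1 gene share its start bin and the 2 windows overlap, so these are not separate observations.

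The remaining pairs of Bcl3 pointed downstream, 300 to 650 kb away. Those at 300 and 350 kb were not called without replicate 2 of imminent division. The bin with the starts of Eml2 and Gipr, which encodes the receptor for the incretin GIP, at chr7:19150036-19199270 had 28.7 and 39.8 counts with Bcl3 (3 h), 53.9 and 52.7 (10 h), 25.4 and 25.5 (imminent division) and 29.97 and 28.4 (pre-S). Both 10 h libraries exceeded the other 6. From 10 h to imminent division it changed by -1.06 ± 0.222 (edgeR, adjusted p = 0.00154, and 0.0266 without replicate 2). The bin at 400 kb with Ckm, the muscle creatine kinase gene, and Klc3 changed by -0.83 ± 0.176 (adjusted p = 0.00187, and 0.172 without replicate 2). Relb had 2 further calls, 1 with the bin of Ceacam20, Igsf23 and Nlrp9b 350 kb away (-1.26 ± 0.357, adjusted p = 0.0325) and 1 with that of Bloc1s3, Nkpd1 and Trappc6a 100 kb away (-0.36 ± 0.106, adjusted p = 0.0402), neither called without replicate 2.

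Nfkbie lost contacts over a longer span, from 50 kb to 1300 kb, with 5 of its 6 called partners downstream. The partners at either end of that span were not called without replicate 2 of imminent division. The partner with the smallest p holds the start of Cul9, a cullin gene, and part of Srf, 950 kb away at chr17:46499708-46550070. It had 11.03 and 15.6 counts (3 h), 26.3 and 29.4 (10 h), 11.2 and 12.5 (imminent division) and 13.5 and 9.16 (pre-S), so the 10 h libraries were the highest. The change to imminent division was -1.23 ± 0.309 (edgeR, adjusted p = 0.0126, and 0.061 without replicate 2). The bin of Abcc10, a drug transporter gene, 750 kb away changed by -1.11 ± 0.281 (adjusted p = 0.0133), and that of Mrps18a and Rsph9 at 550 kb by -0.74 ± 0.189 (adjusted p = 0.0140), and neither was called without replicate 2 (adjusted p = 0.109 and 0.0524). Nfkbie also gave the only difference between the groups of 33 h. With the bin of Dnph1 and Ttbk1, 900 kb away at chr17:46449995-46499711, it had 31.2 and 18.4 counts (3 h), 13.7 and 16.1 (10 h), 10.6 and 9.74 (imminent division) and 21.5 and 30.2 (pre-S). Imminent division was lower than pre-S by -1.32 ± 0.340 (edgeR, adjusted p = 0.0392), a call lost without replicate 2 of imminent division (adjusted p = 0.293).

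Rel had 1 call at imminent division, with the bin 450 kb downstream in which Usp34, a deubiquitinase gene, starts (chr11:23299920-23349751). Counts were 30.4 and 38.9 (3 h), 57.5 and 50.7 (10 h), 30.6 and 21.7 (imminent division) and 34.6 and 28.4 (pre-S), again highest at 10 h. The change was -1.05 ± 0.222 (edgeR, adjusted p = 0.00161, and 0.0995 without replicate 2). At pre-S Rel instead differed from 10 h at its upstream side, with the gene-free bin (overlapping no protein-coding gene) next to it (-0.31 ± 0.083, adjusted p = 0.0408) and with another 750 kb away (-2.1 ± 0.566, adjusted p = 0.0449), the latter at 16.4 and 15.2 counts at 10 h and 3.35 and 3.87 at pre-S.

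The smaller sets were as follows. Nfkb2 weakened toward the bin of As3mt, the arsenite methyltransferase gene, 400 kb downstream (-0.91 ± 0.223, adjusted p = 0.00926, and 0.203 without replicate 2) and toward that of Calhm3 and Neurl1a 850 kb downstream (-1.49 ± 0.427, adjusted p = 0.0357, and 0.103 without replicate 2). Tnfaip3 weakened upstream toward the bins 950 kb and 1050 kb away that overlap Map3k5, the gene of the stress kinase ASK1 (-0.91 ± 0.249, adjusted p = 0.0245, and -0.86 ± 0.251, adjusted p = 0.0410), neither of them called without replicate 2 (adjusted p = 0.0567 and 0.133). It strengthened toward Arfgef3 300 kb downstream, with 10.0 and 6.64 counts at 10 h and 25.0 and 16.3 at imminent division (1.32 ± 0.384, edgeR adjusted p = 0.0402, and 0.0292 without replicate 2, but 0.338 without replicate 1). Nfkbiz gave the other stronger pair, with a gene-free bin 500 kb downstream (chr16:55299988-55349736) and the only partner of the 27 outside A. Its counts were 18.6 and 7.33 (3 h), 3.80 and 4.76 (10 h), 18.1 and 10.96 (imminent division) and 8.91 and 6.41 (pre-S), so the 10 h libraries were the lowest. The change was 1.69 ± 0.491 (edgeR, adjusted p = 0.0388, and 0.0298 without replicate 2, but 0.331 without replicate 1).

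Nfkbia and Nfkb1 completed the set. Nfkbia weakened toward a gene-free bin 650 kb downstream at imminent division (-0.69 ± 0.207, edgeR adjusted p = 0.0481, and 0.167 without replicate 2, lost in 9 of 12 alternatives) and toward that of Cfl2, a cofilin gene, 600 kb downstream at pre-S (-1.01 ± 0.277, adjusted p = 0.0491). Nfkb1 weakened at pre-S toward the bin of Ppp3ca, which encodes a calcineurin catalytic subunit, 1000 kb upstream (-1.62 ± 0.441, adjusted p = 0.0476), with a mean of 22.3 ± 3.29 (SD, n = 2) counts at 10 h and 7.59 ± 5.95 at pre-S.

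Apart from any change, each start bin had preferred partners, taken as the 3 bins at least 150 kb away with the highest mean ratio of observed to expected contacts at that distance over the 8 libraries. Nfkbiz stood out by level. Gene-free bins 300, 250 and 350 kb downstream, together chr16:55450160-55599862, met it 7.50, 5.48 and 3.75 times the level set by distance. On the log2 scale the first of these ranged from 2.61 to 3.14 over the 8 libraries. Tnfaip3 followed, with gene-free bins 150 kb (4.14 times) and 650 kb (4.03 times) upstream and the bin of Map7, a microtubule-binding protein gene, 1100 kb upstream (3.39 times). Of the other genes, Nfkbia preferred the bin of Ppp2r3c (3.56 times, 150 kb), Relb that of Ckm and Klc3 (3.49 times, 200 kb), Bcl3 that of Fbxo46, Gm4969, Qpctl and Snrpd2 (3.35 times, 700 kb), Nfkb1 that of Cisd2 and Ube2d3 (3.13 times, 250 kb), Nfkbie that of Gnmt, Pex6 and Ppp2r5d (2.96 times, 1150 kb) and Nfkb2 that of Elovl3 and Pitx3 (2.78 times, 200 kb). For Rela the highest was 2.26 times, with Cdc42bpg, Map4k2 and Men1 700 kb away, and for Rel 1.88 times, with a gene-free bin at 150 kb.

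**Figure D3:**
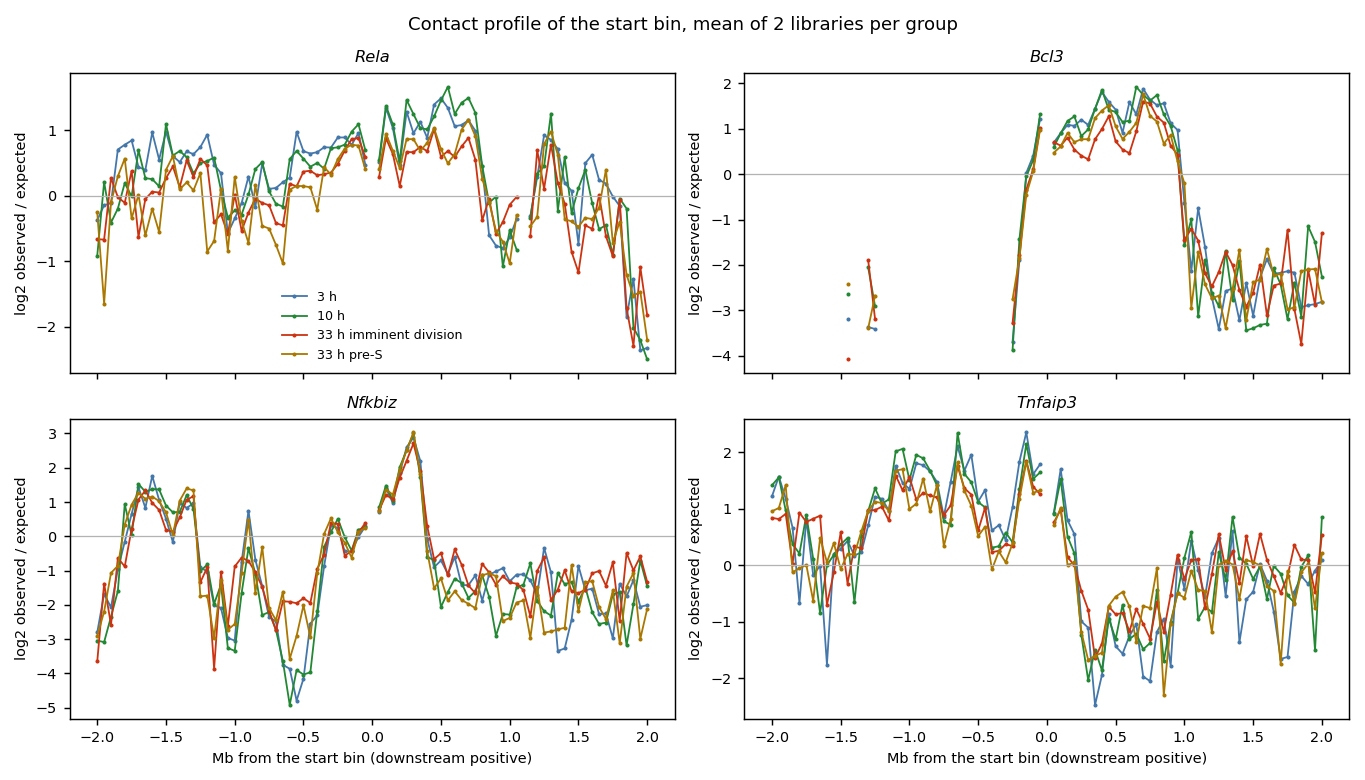
Contact profile of start bins, as log2 of observed over expected contacts (vertical axis) against distance in Mb, downstream to the right, averaged over the 2 libraries of each group. The peak of Nfkbiz near 0.3 Mb downstream stays in all 4 groups.

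The Nfkbie partner at 1150 kb was also among the called losses at imminent division (-1.06 ± 0.281, edgeR adjusted p = 0.0193, and 0.0301 without replicate 2). Its counts were 27.4 and 24.7 (3 h), 29.8 and 35.0 (10 h), 12.5 and 18.3 (imminent division) and 29.6 and 17.3 (pre-S). Imminent division was below 10 h in both libraries, while the 2 pre-S libraries were far apart. None of the 3 preferred partners of Nfkbiz or of Tnfaip3 was called in any comparison.

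Of the contacts of each of the 10 start bins with other bins up to 2 Mb away, most fell within 250 kb, and that share differed between genes. Contacts within the bin, beyond 2 Mb or with other chromosomes are not part of it. At 3 h it was 80.4% and 81.4% for Nfkbia and 79.6% and 80.9% for Relb, against 60.4% and 64.1% for Nfkbie and 59.1% and 58.9% for Rela, with a median over all start bins of 56.9% and 57.8%. Relb, whose window has fewer usable bins, had 0.070% to 0.692% of its contacts up to 2 Mb in the band from 1 to 2 Mb. For Tnfaip3 the share within 250 kb was 70.7% and 68.8% (3 h), 67% and 65.1% (10 h), 62.1% and 63.4% (imminent division) and 64.7% and 64.8% (pre-S). Its libraries ordered by group without overlap down to imminent division. The share was not tested.

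Compartments were scored at 100 kb from the first principal component of the contact map, with positive values for A, the gene-rich and active compartment. All 10 genes lay in A in all 8 libraries, between 0.731 (Rel, pre-S replicate 1) and 1.45 (Nfkb1, 3 h replicate 1). By the mean score over the libraries, 75.8% of all start bins lay in A. None was called between 3 h and 10 h by limma (0 with an unadjusted p below 0.05, and 3.16% of all regions called). At imminent division Bcl3 alone was called, against 22.3% of all regions. It stood at 1.43 and 1.29 (3 h), 1.31 and 1.27 (10 h), 1.13 and 1.17 (imminent division) and 1.22 and 1.24 (pre-S), and was lower in both imminent division libraries than in the other 6. The change was -0.14 ± 0.043 (limma, adjusted p = 0.0283), a call lost without any 1 of the imminent division or 10 h libraries (adjusted p = 0.0642 to 0.197). None was called at pre-S (1 with an unadjusted p below 0.05, limma, 25.0% of all regions called). Between the 33 h groups Rel was called, against 17.8% of all regions. Its scores were 0.803 and 0.862 (3 h), 0.795 and 0.764 (10 h), 0.856 and 0.883 (imminent division) and 0.731 and 0.773 (pre-S), a difference of 0.12 ± 0.035 (limma, adjusted p = 0.0328). That call was lost in 7 of 11 alternatives, which were quantile normalization (0.03, adjusted p = 0.554) and the omission of any 1 of the 10 h, imminent division or pre-S libraries (adjusted p = 0.0587 to 0.237).

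Insulation was scored per 50 kb bin as log2 of the mean contacts that cross it within 500 kb, less the autosomal median of the library, so a low score marks a boundary between domains. It could be scored for 8 genes, as bins near Nfkbia and Bcl3 were left out. None of the 8 was called between 3 h and 10 h by limma (1 with an unadjusted p below 0.05, and 0.0324% of all bins called). All 8 were lower at imminent division than at 10 h, where 58.7% of all bins were called and 32.7% were called lower. All 8 were lower at pre-S too, where 60.8% were called and 34.8% lower. From 10 h to imminent division the group means of genes of other cell types fell as well. They went from 1.52 to 0.913 for Cd3e, 0.035 to -0.17 for Tcf7, 0.80 to 0.39 for Csf1r, 0.57 to 0.43 for Lyz2 and 0.38 to 0.20 for Alb. A fall was thus not particular to the 8 genes. Of the 8, Rela had the widest change. Its score was 1.80 and 1.52 (3 h), 1.72 and 1.73 (10 h), 0.888 and 0.952 (imminent division) and 1.21 and 1.27 (pre-S). The groups of 33 h did not overlap with the earlier ones or with each other. From 10 h the change was -0.81 ± 0.081 (limma, adjusted p = 1.54e-05) and -0.48 ± 0.081 (adjusted p = 0.000570).

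Relb followed, with scores of 1.44 and 1.14 (3 h), 1.35 and 1.32 (10 h), 0.566 and 0.612 (imminent division) and 0.898 and 0.940 (pre-S), and changes of -0.75 ± 0.083 (limma, adjusted p = 2.40e-05) and -0.42 ± 0.083 (adjusted p = 0.00136). Rela and Relb were also the only 2 of the 8 called between imminent division and pre-S, with 8.94% of all bins called. They differed by -0.32 ± 0.081 (limma, adjusted p = 0.0271) and -0.33 ± 0.083 (adjusted p = 0.0281), and both calls were lost without any 1 of the 10 h, imminent division or pre-S libraries (highest adjusted p 0.209 and 0.196). Nfkb2 fell by 0.67 and 0.48 on the log2 scale at imminent division and pre-S, Nfkbie by 0.61 and 0.47, Nfkb1 by 0.43 and 0.28, Rel by 0.37 and 0.31, Tnfaip3 by 0.34 and 0.38, and Nfkbiz by 0.23 and 0.17, the last a call lost in 5 of 12 alternatives. Nfkbie had the lowest scores of the set, 0.705 and 0.469 at 3 h and -0.02 and 0.11 at imminent division.

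The score also carries the general density of contacts around a gene. Measured instead against the bins up to 1 Mb away, an alternative chosen after the data were seen, the changes at imminent division shrank to -0.27 for Rela and -0.31 for Relb, that of Nfkbiz widened to -0.35, and all 8 remained called there. At pre-S 5 of the 8 were called by it, and Rel, Rela and Relb were not. Rel was also not called at pre-S with the median taken per chromosome instead. The score against 1 Mb surroundings called 25494 of all 46342 bins at imminent division and 18168 at pre-S. By this relative score Nfkbie lay at the 13.9th percentile of all scored autosomal bins, the nearest of the set to a boundary. Relb (98.2nd), Nfkbiz (95.0th) and Tnfaip3 (92.3rd) lay inside domains.

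**Figure D4:**
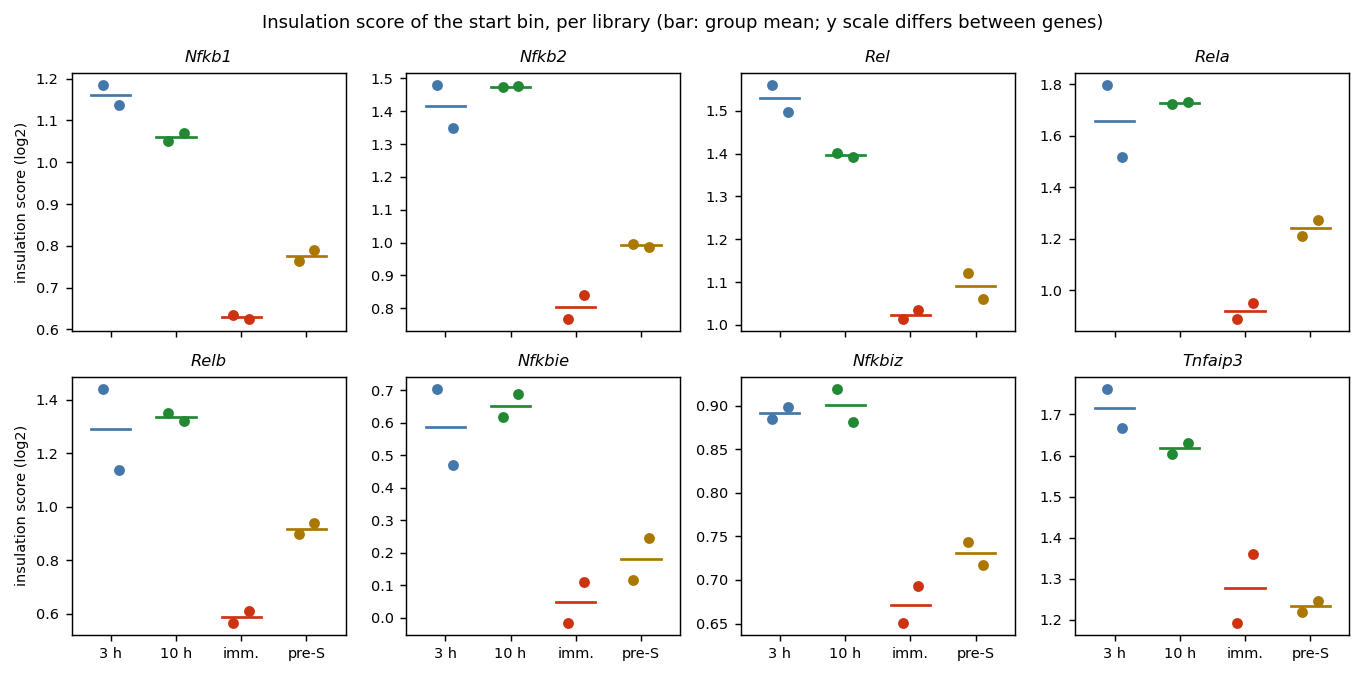
Insulation score (log2, relative to the library median) of the 8 start bins that could be scored, per library (points) with the group mean (bar). Every gene has its 33 h libraries below its 3 h and 10 h libraries, most widely Rela.

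The boundary ratio compares contacts of a 100 kb region with the 1 Mb before it (lower coordinates) and with the 1 Mb after it, as log2, and edgeR's glmTreat tested whether it changed by more than 1.1-fold. No gene was called between 3 h and 10 h (0 with an unadjusted p below 0.05, 0.392% of all regions called). At imminent division Nfkbia and Nfkbie were called, against 18.2% of all regions. The region of Nfkbia leaned toward lower coordinates, with ratios of 1.33 and 1.42 (3 h), 1.43 and 1.40 (10 h), 0.974 and 1.02 (imminent division) and 1.17 and 1.29 (pre-S). Both imminent division values were the lowest of the 8. The change was -0.42 ± 0.060 (glmTreat, adjusted p = 1.01e-05) and was called under all 11 alternatives. Nfkbie leaned toward higher coordinates, with -0.949 and -0.882 (3 h), -0.972 and -1.04 (10 h), -0.566 and -0.642 (imminent division) and -1.04 and -0.950 (pre-S). It became more even at imminent division alone, by 0.40 ± 0.058 against 10 h (glmTreat, adjusted p = 1.25e-05) and by 0.39 ± 0.063 against pre-S (adjusted p = 0.000500, and 0.0512 without replicate 1 of pre-S).

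Nfkb1 was the gene of this measure that moved at pre-S. Its ratios were 0.116 and 0.0761 (3 h), 0.247 and 0.276 (10 h), 0.209 and 0.159 (imminent division) and 0.571 and 0.533 (pre-S), where both libraries lay above the other 6. The change from 10 h was 0.29 ± 0.063 (glmTreat, adjusted p = 0.0410), against 4.84% of all regions called, and imminent division differed from pre-S by -0.37 ± 0.059 (adjusted p = 0.000687), against 5.55%. The first of these was lost in 5 of the 11 alternatives and the second in 0 of 11. Relb and Bcl3 had positive ratios throughout (0.763 to 0.891 and 2.09 to 2.35) and were not called in any comparison. Of the 20 bins in the 1 Mb at higher coordinates only 8 were usable for Relb and 4 for Bcl3, against all 20 at lower coordinates, so the level of these ratios was set in part by bins left out.

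**Figure D5:**
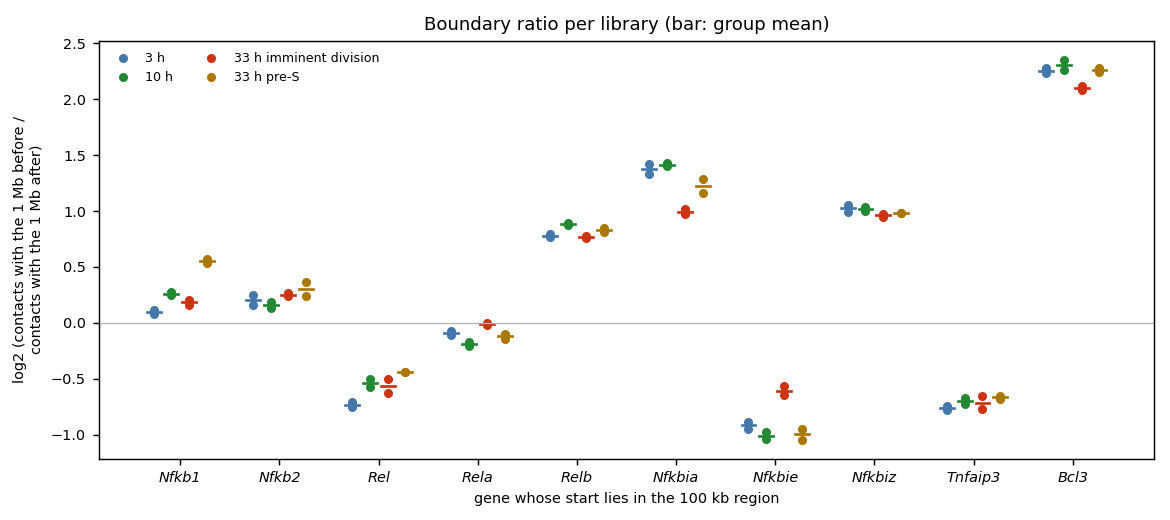
Boundary ratio, log2 of contacts with the 1 Mb at lower coordinates over the 1 Mb at higher coordinates, for the 100 kb region of each gene start, per library (points) with the group mean (bar). Nfkbia and Nfkbie move toward 0 at imminent division, and Nfkb1 moves up at pre-S.

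The wider pathway was followed through 30 further genes, from kinases and adaptors to deubiquitinases. Of these, 12 changed in summed contacts at imminent division, 11 of them downward, where 44.0% of all start bins were called and 21.8% called lower. The difference between these shares was not tested. The lower ones included the TRAF adaptor genes Traf1, Traf2 and Traf5, the kinase partner Tab1, the deubiquitinase genes Cyld and Otulin, the linear ubiquitin ligase subunit Rbck1, the A20-binding Tnip1 and Tnip2 and the nuclear inhibitor Nfkbid, and Tnip3 was higher. Their median change was -0.05, against 0.0017 over all start bins. Traf2 changed most, by -0.27 ± 0.041 (edgeR, adjusted p = 5.98e-05), and Nfkbid changed by -0.22 ± 0.041, while Tnip3 rose by 0.16 ± 0.044. At pre-S 7 of the 30 changed, 6 of them downward, where 37.1% of all start bins were called and 18.0% called lower. These included Traf2, Traf5, Cyld, Nfkbid and Tnip1 lower and Tnip3 higher. None of the 30 was called between 3 h and 10 h (2 with an unadjusted p below 0.05) or between the 33 h groups (1 with an unadjusted p below 0.05) by edgeR. Insulation was lower in 28 of the 30 at imminent division and in 27 at pre-S by limma, where 32.7% and 34.8% of all bins were called lower. The gene called the other way was Map3k7, the TAK1 kinase gene, whose insulation score rose by 0.39 ± 0.084 at imminent division (limma, adjusted p = 0.00183) while its compartment score fell by 0.36 and 0.40 at imminent division and pre-S. Compartment scores were lower in 5 and 6 of the 30 in these comparisons and higher in none, where 22.3% and 25.0% of all regions were called. The 5 include Birc2 and Birc3, which share 1 region of 100 kb and are not separate observations. Over all regions 3249 were called lower and 2061 higher at imminent division, and 5308 lower and 631 higher at pre-S. Quantile normalization made the pre-S counts 2749 lower and 2697 higher. The boundary ratio could be tested for 29, of which 11 were called at imminent division (4 higher and 7 lower, with 18.2% of all regions called) and 2 at pre-S, both lower (4.84%). The shared region of Birc2 and Birc3 is again counted under both genes among the 7. Map3k7 rose most in this ratio (0.74 ± 0.067, glmTreat adjusted p = 2.54e-14), followed by Ripk1, the gene of a kinase downstream of TNF receptors (0.42 ± 0.065).

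Rela, Relb, Bcl3 and Nfkbiz, whose summed contacts were called in both 33 h comparisons, were also matched by their pattern over the 8 libraries to the start bin on another chromosome with the smallest root mean square distance, out of 12222 to 12869 bins. The nearest bin to Rela was that of Atxn10 (distance 0.015 on the log2 scale), to Relb that of Acsf2 and Lrrc59 (0.0155), to Bcl3 that of Ccr7 (0.0289), and to Nfkbiz that of the olfactory receptor genes Olfr937 and Olfr938 (0.0104). Such matches were picked as nearest among many bins over 8 libraries that share their groups and depth, and are given as a description.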

How the data were processed

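In situ Hi-C of 8 libraries was sequenced as paired reads on an Illumina NextSeq 500. Per the study's methods the authors aligned reads to mm10 with diffHic, marked duplicates and removed dangling ends and long fragments. The deposited values are raw counts of read pairs per pair of 50 kb bins, 1 sparse matrix per library, with no normalization. The matrices name bins by number only, so coordinates were rebuilt from MboI fragment midpoints of GRCm38 (53357 bins in 66 sequences). Of 48088 autosomal bins, 756 were left out for unknown bases or extreme coverage and 47332 were used, 13301 of them with a protein-coding start (GENCODE vM21).

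Summed contacts and bin pairs were tested with edgeR 4.0.16 (quasi-likelihood F test, loess offsets, bin pairs over 4-fold above the interchromosomal background, 1458577 tested), compartments (100 kb) and insulation with limma 3.58.1, and boundary ratios with glmTreat at 1.1-fold, all in R 4.3.3. Each fit covered the whole autosomal table and all 4 groups, and p-values were adjusted by Benjamini-Hochberg over it (5%). Insulation used the mean over usable bin pairs in place of the plain sum, since bins had been left out. Changes are log2 and errors are SE. DESeq2 1.42.0, TMM factors and other settings served as alternatives, and each test was tried on simulated data. Precision rests on 2 libraries a group. Replicate numbers did not pair the libraries (correlations of deviations -0.431 to 0.136). All 10 genes are named, along with the pathway genes that passed a test and up to 3 called bin pairs per gene and comparison with the smallest p, with further pairs of the set given by their values. The members and lists were chosen with earlier results of these data known. Naive B cells, expanded cells and plasmablasts were not analysed here, and a few genes that met the rules above are not reported here.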

Additional observations from a re-analysis of the deposited data

Results flagged for a closer look

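Between imminent division and pre-S, 6 results differed by a direct test of the 2 groups of 33 h. Insulation was lower at imminent division for Rela (-0.32 on the log2 scale) and Relb (-0.33). The compartment score of Rel was higher by 0.12. The boundary ratio of Nfkb1 was lower by -0.37 and that of Nfkbie higher by 0.39. The pair of Nfkbie with the bin of Dnph1 and Ttbk1 was weaker, by -1.32. The ratio of Nfkb1 was called in all 11 alternatives, whereas each of the other 5 was lost without at least 1 library: Rela and Relb in 6 of 12 alternatives, Rel in 7 of 11, the pair of Nfkbie in 7 of 13 and its ratio in 1 of 11 (without replicate 1 of pre-S). The sorting gate and the FUCCI strain cannot be told apart from the group in any of these 6 values.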

How the results depend on the processing

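Summed contacts gave 15 alternatives to the counts of called genes (5 at imminent division, 4 at pre-S). DESeq2 called 7 and 5 and TMM factors 7 and 6, Nfkbiz in neither. Over all start bins DESeq2 called 6746 and 6046 of 13301, and TMM factors 7459 and 6740 of 13298. With bin coverage in the offsets none of the 5 was called, and the count of 1 at imminent division was Nfkb1 (-0.19, adjusted p = 0.0200). At pre-S it gave 2, Rela and Relb, and between the 33 h groups 1, Rela, in place of 0. The study's filter on interactions gave 2 (Nfkbie and Nfkbiz) and 2 (Relb and Nfkbiz). Leaving out 1 library gave 0 to 1 between 3 h and 10 h, 3 (without 10 h replicate 2) to 6 at imminent division and 1 (without pre-S replicate 1) to 5 at pre-S. Signs turned for Rel with TMM factors (-0.13 at imminent division, -0.15 at pre-S) and DESeq2 (-0.13 and -0.14), for Tnfaip3 at imminent division with TMM factors (-0.16) and DESeq2 (-0.16), for Rela at imminent division with bin coverage (0.016) and the study's filter (0.0726), and for Nfkbiz with bin coverage (-0.0317); the cause was not tested. For the 10 genes taken singly, 560 values of summed contacts either kept their call and its direction or stayed uncalled, 10 became calls, 21 lost theirs and 9 turned with a call in either setting. Over all start bins at pre-S, bin coverage in the offsets gave 1048 higher and 2176 lower, against 2542 and 2395. Bin pairs at imminent division numbered 46 with TMM factors and 43 with bin coverage in place of 27, and 2 to 33 with 1 library left out. Bin pairs at pre-S numbered 17 with TMM factors, 1 with bin coverage and 3 with no abundance filter in place of 8, and 0 to 10 with 1 library left out. TMM factors turned all tested pairs at pre-S from 5097 stronger and 3638 weaker to 3338 and 7909. Over all tested pairs DESeq2 called 8280 at imminent division and 1909 at pre-S, against 29618 and 8735 by edgeR. Between the 33 h groups the 1 pair became 0 with DESeq2 or TMM factors and 8 with bin coverage, and 0 to 1 with 1 library left out. For compartments, 250 kb bins gave 2 calls from 3 h to 10 h, 5 for imminent division and 3 for pre-S, quantile normalization gave 3 and 1 at imminent division and pre-S, and leaving out 1 library gave 0 to 2 in all but the pre-S comparison. For insulation measured against 1 Mb surroundings the counts were 2 between 3 h and 10 h, 5 at pre-S and 4 between the 33 h groups, and with 1 library left out they were 0 to 1, 7 to 8 (both 33 h comparisons with 10 h) and 0 to 3. Over all 46342 bins the score against 1 Mb surroundings called 5069 between 3 h and 10 h, 18168 at pre-S and 15950 between the 33 h groups. Without a fold threshold the boundary ratio gave 1 call from 3 h to 10 h, 4 for imminent division and 2 for pre-S, and a 500 kb window gave 0 at pre-S. With 1 library left out it gave 0 to 1 at pre-S and 1 to 2 between the 33 h groups.

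The replicate number as a block gave 5 and 4 calls in summed contacts, 25 bin pairs at imminent division, 2 at pre-S and 0 between the 33 h groups. It moved 1 insulation call (7 of 8 at pre-S) and no call in compartments or boundary ratios. Same-numbered libraries share only a number (correlations -0.431 to 0.136), so a call lost under the block is not a weaker effect. With 2 libraries a group, 1 library sets many calls. Pairs with few counts carry wide counting error, which depth (88703088 to 218945191 read pairs) limits most in the shallowest library.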
